A study of Homo sapiens with 64 samples.

Results

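FoxM1 binding was followed through the cell cycle of U2OS cells, an established human osteosarcoma line, by chromatin immunoprecipitation and sequencing (ChIP-seq). The data are 4 lists of FoxM1 peaks, which are stretches of DNA enriched in the FoxM1 precipitate. They were chosen by antibody and cell line and hold 698 of the 2442 peaks in the series, in 4 of its 24 lists. The lists cover asynchronous cells and cells released for 3, 7 or 9 h from a thymidine block that arrests them in early S phase. The study places 3 h in S phase, 7 h between S phase and G2/M, and 9 h in G2/M. Each list covers 2 labelled samples, so the 4 lists stand for 8 of 64 samples, and the other U2OS lists were made with antibodies against γ-tubulin, PCNA and Mcm5. The series also holds lists from U2OS cells with an shRNA against TUBG (shTUBG U2OS), in which FoxM1 was not precipitated. There is 1 list for each time, so no FoxM1 value has a replicate error, and the number of reads behind a list is unknown. The study states that cultures of separate experiments were used, but a list pools its samples, so their spread is not seen here.

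FoxM1 is a forkhead transcription factor that is known for activating genes needed late in the cell cycle, at G2 and in mitosis. It is recruited to many of these genes together with the MuvB complex, and it is more active as cells approach mitosis. Most of its known target promoters lie on chromosome arms. Pericentromeres are the largely repetitive stretches beside the centromeres, where short reads often match several places. Of the build of the lists (hg19), only centromere gaps and chromosome lengths were used here, and no gene annotation or genome sequence. Peaks are therefore given by position, without genes or sequence.

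FoxM1 peaks were more numerous at 3 h and 9 h than in asynchronous cells and at 7 h. There were 129 peaks in the asynchronous list, 202 at 3 h, 123 at 7 h and 244 at 9 h. The 3 h list was thus 1.64 times and the 9 h list 1.98 times as long as the 7 h list. The length of DNA under the peaks differed more than their number. It was 58.2 kb in the asynchronous list, 124 kb at 3 h, 66.0 kb at 7 h and 152 kb at 9 h, which is a ratio to 7 h of 1.88 at 3 h and 2.30 at 9 h. When peaks within 1000 bp of each other were joined, 69, 113, 69 and 138 remained in the same order of times. The median score, a whole number the peak caller attached to each peak, was 68 in the asynchronous list, 117 at 3 h, 88 at 7 h and 126.5 at 9 h. The median scores thus stood in the same order as the covered lengths. Read depth can move a score and a number of peaks, and its part in them was not tested. The order of list lengths was not particular to FoxM1. γ-Tubulin had 102, 123, 75 and 153 peaks over the same times, the same order as FoxM1. PCNA had 118, 104, 17 and 130 peaks and Mcm5 98, 132, 29 and 109. The 7 h list was the shortest for each antibody, and for PCNA the 3 h list was shorter than the asynchronous one.

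The added peaks at 3 h and 9 h lay mostly in pericentromeres. Here a pericentromere is sequence within 5 Mb of the assembly's centromere gap, a chromosome end is the last 50 kb of a chromosome, an arm is the rest of a chromosome, and a scaffold is a sequence that the assembly has not placed within a chromosome. Of the 698 FoxM1 peaks, 395 lay in pericentromeres (56.6%), 106 on scaffolds (15.2%), 106 on arms (15.2%), 66 on the mitochondrial genome (9.46%) and 25 at chromosome ends (3.58%). Within pericentromeres, 330 of the 395 peaks were within 0.5 Mb of the gap. Pericentromeric peaks numbered 59 in the asynchronous list, 126 at 3 h, 59 at 7 h and 151 at 9 h. As a share of the list they were 45.7% (95% Clopper-Pearson interval 36.9 to 54.7), 62.4% (55.3 to 69.1), 48.0% (38.9 to 57.2) and 61.9%. These intervals, like the others given here, cover counting error only. The 3 h list had 79 peaks more than the 7 h list, and the pericentromeres accounted for 67 of them (84.8%). The 9 h list had 121 more, of which 92 were pericentromeric (76.0%) and 17 were on arms. Mitochondrial peaks hardly varied in number, with 16, 16, 16 and 18, and scaffolds had 26, 28, 22 and 30. Arms had 23, 24, 21 and 38 peaks. Arms thus had more peaks at 9 h than at 7 h, but hardly more at 3 h. Pericentromeric peaks of γ-tubulin numbered 48, 73, 43 and 107 over the same times, out of 102, 123, 75 and 153 peaks. PCNA had 71, 64, 0 and 84 pericentromeric peaks and Mcm5 46, 59, 0 and 66. More pericentromeric peaks at 3 h and 9 h than at 7 h were thus not particular to FoxM1.

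**Figure D1:**
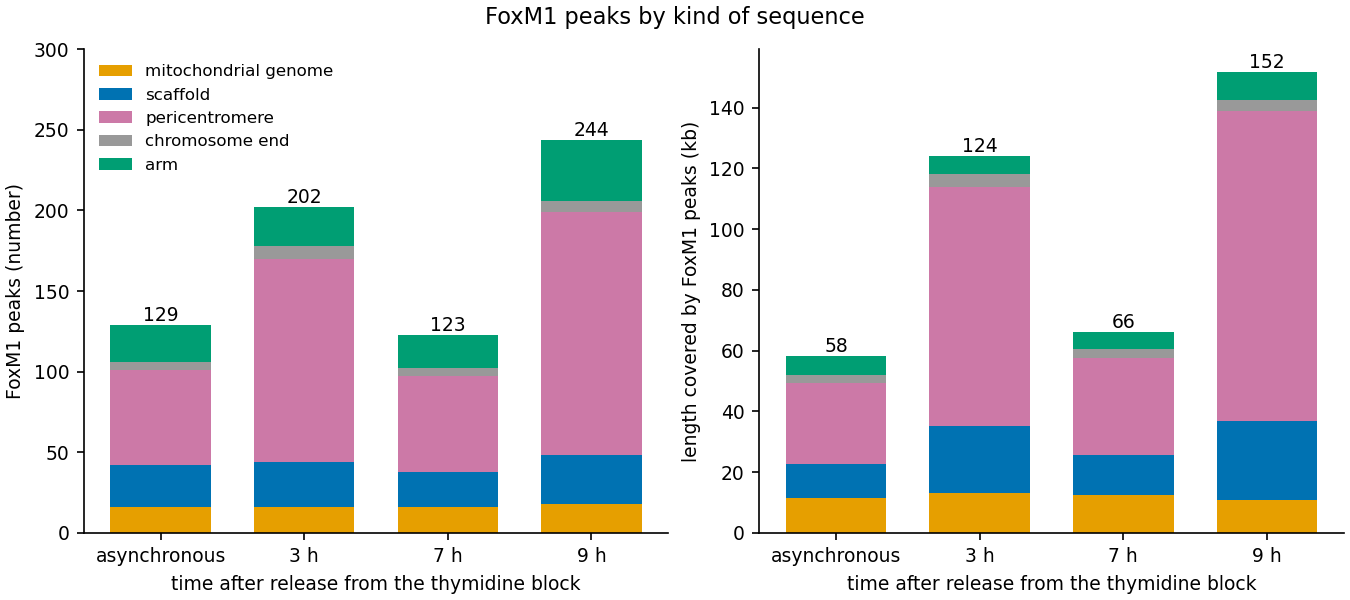
FoxM1 peaks at each time by kind of sequence, as the number of peaks (left) and as the length of DNA they cover in kb (right), with the total above each bar. Pericentromeric peaks number 59 at 7 h and 151 at 9 h, and mitochondrial peaks between 16 and 18.

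A few sequences carried most of the difference in number. On chromosome 2, FoxM1 had 9 peaks in the asynchronous list, 33 at 3 h, 7 at 7 h and 36 at 9 h. On chromosome 16 the numbers were 12, 28, 10 and 32. Chromosome 4 held 2, 11, 1 and 26 peaks and the scaffold chr9_gl000199_random 0, 10, 1 and 18. On all 4 of these sequences the 3 h and 9 h lists were longer than the other pair. Chromosome 10, which had the most FoxM1 peaks, with 102, did not follow them closely and had 22, 31, 21 and 28. On the scaffold gl000226 the order was different, with 15, 13, 16 and 7 peaks.

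Peak number and covered length went in opposite directions where neighbouring peaks ran together. On gl000226 the number of FoxM1 peaks was lowest at 9 h, but the length they covered was 4.98 kb in the asynchronous list, 12.6 kb at 3 h, 6.27 kb at 7 h and 14.0 kb at 9 h. The same held for the largest cluster of chromosome 10 (chr10:42360689-42409437), where a cluster is a set of peaks with gaps of at most 100 kb. Its 16, 14, 15 and 10 peaks covered 9.29, 15.4, 10.5 and 16.8 kb. In it lay the widest FoxM1 peak of all, chr10:42390137-42397258 at 9 h, with 7122 bp and a score of 723. The same stretch held 7 separate peaks in the asynchronous list, 4 at 3 h and 8 at 7 h. Across the genome, 13 peaks of the 9 h list each covered several 7 h peaks and took in 40 of them, whereas 3 peaks of the 7 h list took in 8 of the 9 h peaks.

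The 8 clusters with the most FoxM1 peaks held 409 of the 698 (58.6%). The largest was chr16:46386368-46435571, which lies 0.566 kb from the centromere gap, with 12 peaks in the asynchronous list, 28 at 3 h, 10 at 7 h and 30 at 9 h. These covered 3.62, 16.9, 4.80 and 24.1 kb. The cluster chr2:92268981-92326127, which reaches to 0.044 kb from the gap, had 6, 26, 6 and 26 peaks. A further cluster on chromosome 10, chr10:42527881-42600571, had 6, 14, 6 and 14, and chr19:27731873-27740356 had 3, 8, 3 and 10. In each of these 4 the asynchronous and 7 h lists had nearly equal numbers, as did the 3 h and 9 h lists. In all there were 122 clusters, of which 43 were called in the asynchronous list, 56 at 3 h, 46 at 7 h and 75 at 9 h. Comparing 9 h with 7 h, 26 clusters were called at both times and held 175 peaks at 9 h and 103 at 7 h. Another 49 clusters with 69 peaks were called at 9 h and not at 7 h, and 20 clusters with 20 peaks at 7 h and not at 9 h. The longer list thus had more peaks inside places already called and more places.

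**Figure D2:**
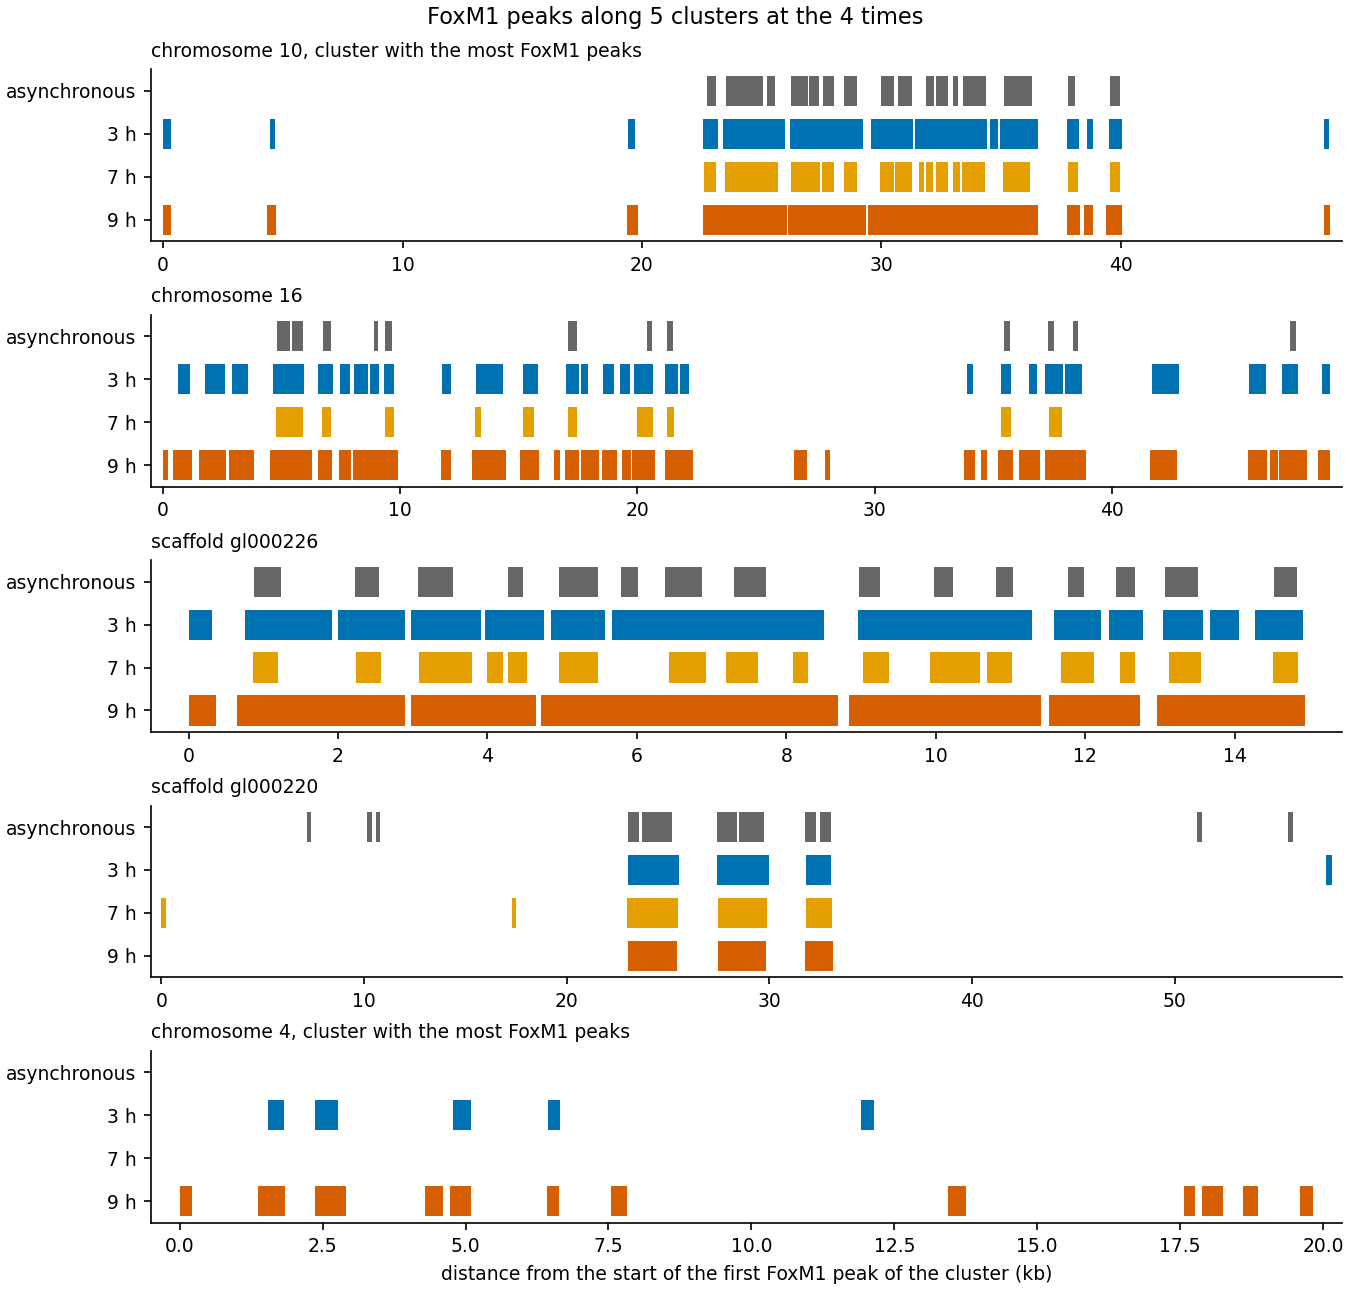
FoxM1 peaks along 5 clusters, each bar being a peak drawn to scale, with the times as rows and the distance in kb from the first FoxM1 peak of the cluster on the horizontal axis. On chromosome 10 and gl000226 the bars of 3 h and 9 h fuse and widen, on chromosome 16 they also fill stretches without bars at 7 h, on gl000220 the 3 wide blocks occur at all 4 times, and the chromosome 4 cluster has bars at 3 h and 9 h only.

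Widths were similar at their middle and differed in the upper range. The median width was 327 bp in the asynchronous list, 364 bp at 3 h, 355 bp at 7 h and 349.5 bp at 9 h, and the narrowest peak of each list had 200 bp. The widest had 2065, 3842, 3847 and 7122 bp. Peaks over 1000 bp numbered 10, 31, 14 and 36. In asynchronous cells and at 7 h the widest peak was mitochondrial, at chrM:10611-12675 and chrM:10621-14467, and at 3 h and 9 h it was pericentromeric on chromosome 10. By kind, the median width over all times was 540 bp on the mitochondrial genome, 387 bp in pericentromeres, 353 bp at chromosome ends, 338 bp on scaffolds and 215 bp on arms. Arm peaks were thus close to the narrowest width in the lists, and none exceeded 567 bp.

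Apart from medians, scores were compared within a list, as a percentile, which is the percent of the other peaks of the list that a peak outscores. The highest-scoring peaks outside the mitochondrial genome lay in the same pericentromeric places at 3, 7 and 9 h. At 3 h they were chr10:42596719-42600560 with a score of 754, chr1:121484012-121485481 with 750 and chr10:42386864-42389939 with 689. At 7 h, chr10:42386925-42388128 had 241, chr1:121484072-121485434 had 235 and chr10:42597461-42598542 had 232. At 9 h, chr1:121484009-121485488 and chr10:42596705-42600571 both had 897 and chr10:42386806-42390038 had 790. The order of these 3 places differed between the times. In asynchronous cells chr10:42389134-42389692 with 149 and chr10:42392577-42392874 with 146 came first. The next was chr1:566112-566539 with 134, which lies on an arm in a stretch known as a nuclear copy of mitochondrial DNA.

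The rank of mitochondrial peaks moved with time although their number did not. Their median percentile was 71.3 in the asynchronous list, 36.8 at 3 h, 63.9 at 7 h and 32.4 at 9 h. In the asynchronous list the highest score of the whole list, 157, was mitochondrial. The covered part of the mitochondrial genome was 11390 bp in asynchronous cells (68.7% of 16571 bp), 13055 bp at 3 h (78.8%), 12538 bp at 7 h (75.7%) and 10888 bp at 9 h (65.7%). Scaffold peaks ranked higher at 3 h and 9 h than in the other lists, with median percentiles of 25.8, 66.4, 39.5 and 55.9. Arm peaks were low at each time, with 35.9, 16.4, 24.6 and 19.2, and pericentromeric peaks had 55.5, 54.5, 57.0 and 60.5. The median score of mitochondrial peaks was 90, 98.5, 108 and 95 over the same times, so it stood in another order than their rank.

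**Figure D3:**
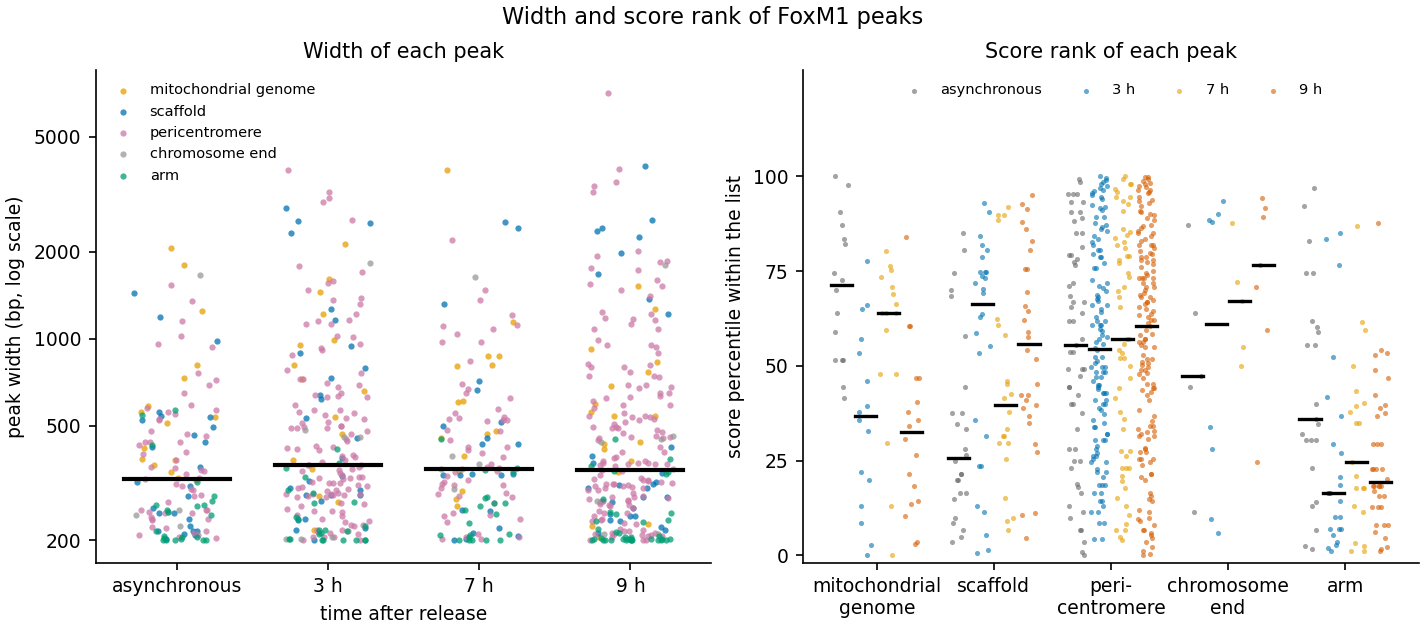
Width of each FoxM1 peak in bp on a log axis by time (left), and score percentile within the list by kind of sequence and time (right), with each point a peak and black lines the medians. The points over 1000 bp number 10, 31, 14 and 36 over the 4 times, and mitochondrial medians are higher in asynchronous cells (71.3) and at 7 h (63.9) than at 3 h (36.8) and 9 h (32.4).

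Next, positions were followed from time to time. A peak was called kept when a peak of the other list shared at least 25% of the length of both. Of the 202 peaks at 3 h, 78 were kept at 7 h (38.6%, 95% interval 31.9 to 45.7), against 29.9% of the 3 h peaks of the 4 antibodies together. These 4 include FoxM1, and the 7 h lists of PCNA and Mcm5 held only 17 and 29 peaks. For γ-tubulin alone the share was 47.2%, above that of FoxM1. Of the 123 peaks at 7 h, 60 were kept at 9 h (48.8%, 39.7 to 58.0), below the 59.4% of all antibodies. Of the 129 peaks in the asynchronous list, 73 were kept at 3 h (56.6%, 47.6 to 65.3), also below the 71.4% of all antibodies. The highest share was between times that are not neighbours, with 172 of the 202 peaks at 3 h kept at 9 h (85.1%, 79.5 to 89.8), beside 80.4% over all antibodies. Seen from 9 h, 162 of 244 peaks were found at 3 h (66.4%), 61 at 7 h (25%) and 51 in asynchronous cells (20.9%).

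By shared length and by rank, the 4 lists fell into pairs. Asynchronous cells and 7 h shared 59.8% of the length that either covered, and 3 h and 9 h shared 71.1%. The other combinations shared between 30.2% (asynchronous and 9 h) and 44.8% (3 h and 7 h). A short and a long list can share only a limited part of the length that either covers. The pairing by this measure is therefore not separate from list length. Ranks followed the same pairs. Across the 87 asynchronous peaks matched at 7 h, the Spearman correlation of the percentiles was 0.743, and across the 172 peaks of 3 h matched at 9 h it was 0.784. The other 4 combinations were lower. The correlation was 0.543 across 78 peaks of 3 h matched at 7 h and 0.421 across 60 peaks of 7 h matched at 9 h. It was 0.277 across 73 peaks matched between asynchronous cells and 3 h, and 0.116 across 54 matched between asynchronous cells and 9 h. These are correlations across peaks of pooled lists, and peaks are not independent. The short lists were largely contained in the long ones, since the 7 h peaks had 89.2% of their length under 3 h peaks and 86.0% under 9 h peaks. The asynchronous peaks had 85.4% of their length under 3 h peaks, 83.7% under 9 h peaks and 79.8% under 7 h peaks. By this measure the asynchronous list did not pair with 7 h. The pairing by shared length and by rank was not particular to FoxM1. For γ-tubulin, asynchronous cells and 7 h shared 70.49% of the length that either covered, and 3 h and 9 h 68.98%. The other γ-tubulin combinations shared 46.65 to 63.86%. The γ-tubulin rank correlations were 0.829 and 0.876 in these pairs and 0.64 to 0.699 otherwise. PCNA and Mcm5, with 17 and 29 peaks at 7 h, shared 11.18% and 31.86% between asynchronous cells and 7 h.

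**Figure D4:**
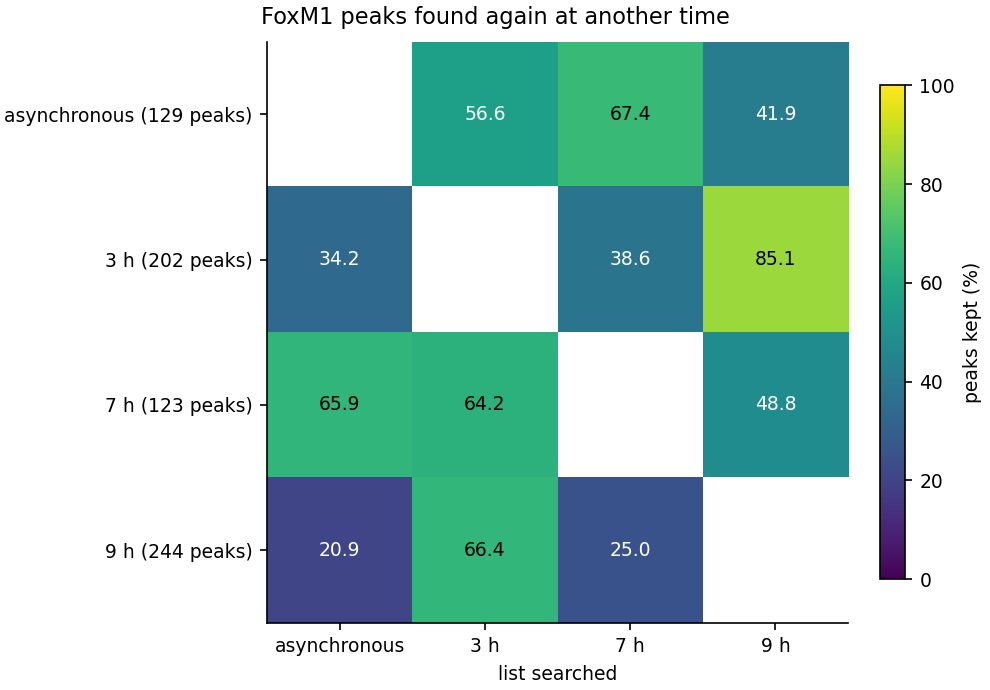
Percent of the FoxM1 peaks of the list named on the left that share at least 25% of both lengths with a peak of the list named below, with the percent printed in each square and shown by colour. The highest square is 3 h searched in 9 h, with 85.1%, and the lowest 9 h searched in the asynchronous list, with 20.9%.

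For the other antibodies too, more of the 3 h peaks were kept at 9 h than at 7 h. For γ-tubulin, 83.7% of the 3 h peaks were kept at 9 h and 47.2% at 7 h, for PCNA 89.4% and 15.4%, and for Mcm5 62.9% and 12.1%. The PCNA and Mcm5 lists held 17 and 29 peaks at 7 h, against 104 and 132 at 3 h. Few of their 3 h peaks could therefore be kept at 7 h, whatever their positions. The lists of a time share their input samples, so the antibodies do not give independent accounts of it, and the read depth of a time cannot be told apart from the time.

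Whether a peak was kept went with its width and rank. At 9 h, peaks kept from the 7 h list had a median width of 606 bp and a median percentile of 84.0, and the others 299 bp and 42.2. At 3 h, peaks kept at 9 h had a median percentile of 54.5 and the 30 others 16.4. Matched peaks were mostly wider in the longer list. Of 60 peaks of 7 h matched at 9 h, 48 were wider at 9 h, with a median ratio of 1.48, and of 78 peaks of 3 h matched at 7 h, 67 were narrower at 7 h, with a ratio of 0.747. From 3 h to 9 h, 145 of 172 matched peaks were wider, but the median ratio was 1.15. Kind mattered too. From 3 h to 9 h, 118 of 126 pericentromeric peaks were kept (93.7%), 25 of 28 scaffold peaks (89.3%) and 8 of 24 arm peaks (33.3%). From 7 h to 9 h, 35 of 59 pericentromeric peaks (59.3%) and 2 of 21 arm peaks (9.52%) were kept. When any shared base counted, 96 of the 123 peaks at 7 h touched a 9 h peak (78.0%), so that 36 of the peaks not kept did touch a 9 h peak, but shared less than 25% of a length with it.

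Peaks of the 4 lists that touched each other were joined into 296 FoxM1 regions. Of these, 51 were called at all 4 times (17.2%, compared with 15.4% of the regions of the 4 antibodies each taken alone), and they held 322 of the 698 peaks (46.1%). Another 18 were called at 3 times, 91 at 2 times and 136 at a single time (45.9%, compared with 41.2% over the antibodies). The shares over the antibodies include FoxM1 and the short 7 h lists of PCNA and Mcm5, with 17 and 29 peaks. Those short lists limit how many regions can be called at all 4 times. The FoxM1 regions called at all times comprised 32 pericentromeric, 8 scaffold, 6 mitochondrial and 4 chromosome-end regions and 1 arm region. Of the 91 regions called at 2 times, 86 were called at 3 h and 9 h, and 1 was called in asynchronous cells and at 7 h. With the lists taken as these pairs, 73 regions were called in both pairs, 178 at 3 h or 9 h only, and 45 in asynchronous cells or at 7 h only.

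The regions called at all 4 times were the wide and high-ranking ones. In them FoxM1 peaks had a median percentile of 66.6, compared with 22.1 in regions of a single time. They covered 49.1 kb in the asynchronous list, 77.4 kb at 3 h, 56.3 kb at 7 h and 80.9 kb at 9 h. From asynchronous cells to 3 h, 49 of the 51 covered more, from 3 h to 7 h 47 covered less, and from 7 h to 9 h 44 covered more. A change of width thus accompanied the change in number also where a position was kept throughout. The highest mean percentile was that of chr10:42386806-42390038, at which peaks covered 2111 bp in the asynchronous list, 3076 at 3 h, 2237 at 7 h and 3233 at 9 h, with percentiles of 99.2, 99.0, 100 and 99.2. The region chr1:121484009-121485488 hardly changed in extent, with 1352, 1470, 1363 and 1480 bp, and was a single peak each time. At chr19:27731873-27732809 the extent was 525, 928, 528 and 937 bp, which repeats the pairing in a single peak of almost constant rank, between 94.7 and 97.5. In chr10:42596705-42600571, 5 peaks in asynchronous cells and 4 at 7 h stood in the place of 1 peak at 3 h and 1 at 9 h. All of these regions were also called for γ-tubulin, PCNA and Mcm5.

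The 86 regions called at 3 h and 9 h and at no other time comprised 67 pericentromeric, 11 scaffold, 5 arm and 3 chromosome-end regions. Most were on chromosomes 2, with 20, 10, with 16, and 16, with 13. Their median width was 375 bp. Peaks covered more at 9 h than at 3 h in 77 of the 86, and the median percentile was 37.1 at 3 h and 55.9 at 9 h. γ-Tubulin was called at 47 of them, PCNA at 33 and Mcm5 at 26, and 28 had FoxM1 alone. Losses at 7 h with a call at each other time were fewer, at 5 regions. The highest-ranking was chr18:18517125-18517755, with 327 bp in the asynchronous list, 631 at 3 h and 623 at 9 h. The others were chr16:46433431-46434612, chr2:92296074-92296563, chr2:92312550-92313538 and, on an arm, chr12:77395573-77395779. The arm region was the narrowest, with 204, 203 and 203 bp, and chr16:46433431-46434612 had no peak of another antibody.

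Gains seen at a single time were mostly at 9 h. Of the 136 regions of a single time, 76 were called at 9 h, 24 in the asynchronous list, 20 at 7 h and 16 at 3 h. They made up 31.1% of the 9 h list (25.4 to 37.4), 18.6% of the asynchronous list, 16.3% of the 7 h list and 7.92% of the 3 h list. At 9 h, 68.9% of FoxM1 peaks were found at another time, and for γ-tubulin the value was almost the same, 69.3%, while it was 76.1% for Mcm5 and 84.6% for PCNA. The 76 regions at 9 h comprised 39 pericentromeric, 28 arm and 9 scaffold regions, and 16 of them were on chromosome 4. At the other times arm regions prevailed, with 18 of 24, 16 of 20 and 13 of 16. Regions of a single time had low ranks, with median percentiles of 38.7 in the asynchronous list, 6.97 at 3 h, 19.3 at 7 h and 22.8 at 9 h. The highest-scoring at 9 h were chr19:27739423-27739622 with a percentile of 68.1, chr22:16861556-16861830 with 65.4 and chr9_gl000199_random:48883-49117 with 62.1. At 3 h the highest was chr1:249240397-249240602, at a chromosome end, with a percentile of 33.8.

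On chromosome arms FoxM1 positions seldom recurred. Of 88 arm regions, 75 were called at a single time, and 61 of these had FoxM1 alone. The median width of arm regions was 212.5 bp. Of the 13 that recurred, 9 were also called for Mcm5, a subunit of the replicative helicase, 5 for γ-tubulin and 3 for PCNA. Over all FoxM1 regions these shares were 34.8%, 43.6% and 32.8%. However, 136 of those 296 regions were of a single time, and 111 of the 136 had FoxM1 alone. The sets are therefore not alike, and the shares among recurring regions of other kinds are not given here. The region chr2:11093919-11094274 was the arm region called at all 4 times, with peaks of 286, 356, 351 and 214 bp and percentiles of 32.0, 36.8, 50 and 12.8. No other antibody was called there. Also without another antibody, chr5:14634287-14634853 was called in asynchronous cells with 567 bp, at 3 h with 299 bp and at 7 h with 356 bp. It was not called at 9 h.

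FoxM1 was called alone at many positions. Peaks that touched no γ-tubulin, PCNA or Mcm5 peak of any time in U2OS made up 17.1% of the asynchronous list (11 to 24.7), 23.8% at 3 h (18.1 to 30.2), 20.3% at 7 h (13.6 to 28.5) and 40.6% at 9 h (34.4 to 47.0). Taking the 4 antibodies together, FoxM1 included, 12.6% of peaks were found for 1 antibody only. The mean of the other 12 lists was 4.78%. In the other 12 lists the share ran from 0% to 27.6%, the highest being Mcm5 at 7 h with 29 peaks in all. By region, 145 of 296 FoxM1 regions (49.0%, 43.2 to 54.8) had FoxM1 alone, and 72 had all 3 other antibodies. Those with FoxM1 alone held 189 of the 698 FoxM1 peaks (27.1%). The 12.6% and 4.78% are shares of peaks, and no share by region was computed for the other antibodies. FoxM1 regions without another antibody were narrower than the rest, with a median of 250 bp compared with 473 bp. A wider region has more room to touch another peak, so this difference is not separate from how regions were built. The regions with FoxM1 alone comprised 64 of the 88 arm regions, 58 of 155 pericentromeric, 22 of 37 scaffold and 1 of 9 chromosome-end regions, and none of the 7 mitochondrial ones. Of the 145, 111 were called at a single time, and 146 of their 189 peaks (77.2%) scored below the middle of their list. In 24 of the 145 a list from shTUBG U2OS cells, made with γ-tubulin or PCNA antibodies, had a peak.

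The pericentromere of chromosome 4 and the scaffold chr9_gl000199_random held many of these positions. FoxM1 had 0, 8, 1 and 21 peaks in the chromosome 4 pericentromere over the 4 times, while γ-tubulin had 3 in all, PCNA 4 and Mcm5 2. Of its 22 FoxM1 regions, 20 had FoxM1 alone, of which 14 were called at 9 h only and 5 at 3 h and 9 h. Their median percentile at 9 h was 9.88, so most were near the end of the list, and 10 of them were touched by a peak from shTUBG U2OS cells. On chr9_gl000199_random, 14 of 18 regions had FoxM1 alone, with a median percentile of 39.9 at 9 h, and 1 was touched by an shTUBG U2OS peak. There γ-tubulin had 6 peaks over all times, PCNA 5 and Mcm5 3, against 29 for FoxM1. In the pericentromere of chromosome 10 only 3 of 25 FoxM1 regions lacked another antibody.

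The scaffold gl000220, which carries copies of the ribosomal RNA gene repeat, differed from these in that FoxM1 was called there at each time with almost constant extent. Its peaks covered 6.38 kb in the asynchronous list, 6.65 kb at 3 h, 6.74 kb at 7 h and 6.16 kb at 9 h. Most of this lay in 3 blocks. At gl000220:126723-129326 FoxM1 peaks covered 1999, 2522, 2547 and 2417 bp, with percentiles of 74.6, 70.1, 89.8 and 54.1. At gl000220:131188-133747 they covered 2174, 2558, 2422 and 2368 bp, with percentiles of 68.4, 74.6, 91.8 and 75.5. At gl000220:135507-136884 they covered 1074, 1269, 1314 and 1378 bp. No other antibody had a peak in the first 2 blocks at any time or in either cell line. The last block was also called for γ-tubulin. PCNA had no peak on gl000220 at any time, and γ-tubulin and Mcm5, which had 11 and 6 peaks there in the asynchronous list, had 0 at 7 h, when their lists were short. The first 2 blocks reached the highest percentiles of all FoxM1 regions without another antibody, 89.8 and 91.8, both at 7 h. With chr2:11093919-11094274 they were the only such regions called at all 4 times.

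FoxM1 lists were then compared with the other U2OS lists of the same time. For each measure, the difference between FoxM1 and the mean of the other 3 lists was averaged over the 4 times and tested by a two-sided exact permutation test that exchanged the lists within each time, with p adjusted over 7 measures. FoxM1 lists held 75.3 peaks more, with a mean of 174.5 compared with 99.2. FoxM1 had the longest list at 4 of 4 times (exact permutation test, p = 0.00391, the smallest possible; adjusted p = 0.0273). The test takes the lists of an antibody at different times as independent of each other. Its p therefore does not measure the spread between antibodies and can be too small. The share of peaks found for no other antibody was 25.4% on average for FoxM1 and 4.78% for the others, a difference of 20.6 percentage points. It was above the others' mean at 4 of 4 times and the highest at 3 (exact permutation test, p = 0.00781, adjusted p = 0.0273). FoxM1 lists were also the longest, so FoxM1 peaks were searched against fewer other peaks than those of each other antibody were. The part of list length in this share was not tested. The measure was also chosen with earlier results of these data known. When the shTUBG U2OS lists were included, the difference was 14.0 points and no longer passed (exact permutation test, adjusted p = 0.208). When lists were exchanged over all times instead of within each, the number of peaks reached the threshold without passing it (exact permutation test, adjusted p = 0.05). Leaving out any of the 4 times gave differences of 62.7 to 92.8 peaks and 14.4 to 23.8 points. With 3 times left the smallest possible p is 0.0156, and no adjusted p passed in this exact permutation test (0.0547 without 7 h and 0.109 without each other time, for both measures).

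No difference was detected for the other 5 measures. The median width was 349 bp for FoxM1 and 352 bp for the others, on average. Mitochondrial peaks were 10.2% and 16.6% of the lists, scaffold peaks 16% and 16.9%, and pericentromeric peaks 54.5% and 47.7%. Peaks found for the same antibody at another time were 81.5% and 85.7%. The adjusted p was 0.863 for each of these in the exact permutation test, which does not show that the lists were alike. The mitochondrial and pericentromeric values depended on 7 h, when all 17 PCNA peaks were mitochondrial and Mcm5 had no pericentromeric peak. Without 7 h the pericentromeric difference was -0.54 points and the mitochondrial difference 0.81 points. In kind of sequence, then, no difference between the FoxM1 lists and the others was detected, and the spread between lists was not measured.

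**Figure D5:**
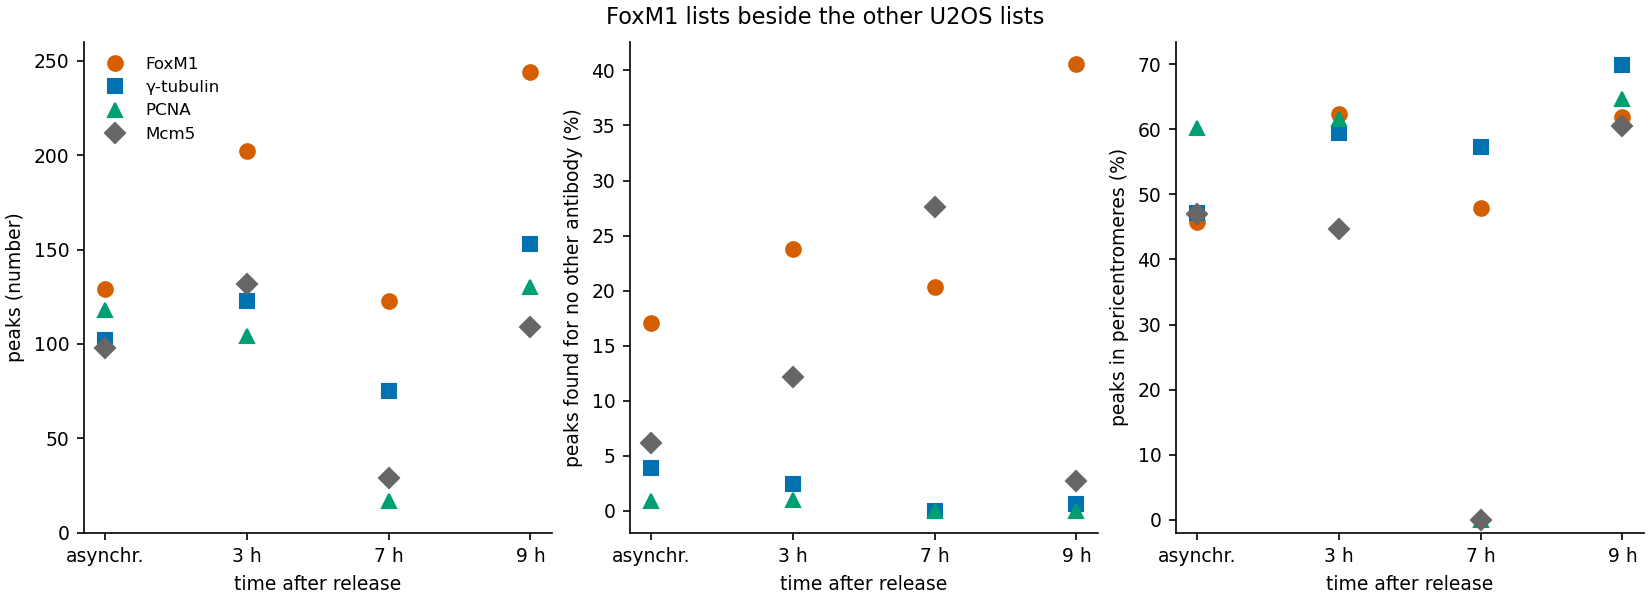
Number of peaks, percent of peaks found for no other antibody and percent of peaks in pericentromeres for each of the 16 U2OS lists, by time and antibody, each point being a pooled list without error. FoxM1 has the most peaks at 4 of 4 times, and its share of peaks without another antibody ranges from 17.1 to 40.6%, while in pericentromeres FoxM1 has the highest share at 3 h (62.4%) and the lowest in asynchronous cells (45.7%), and at 7 h PCNA and Mcm5 are at 0.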

How the data were processed

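ChIP-seq peak lists were used as deposited. Chromatin was digested with micrococcal nuclease, FoxM1 was precipitated with a rabbit polyclonal antibody, and sequencing was paired-end. The submitters' processing notes name Bowtie2 2.1.0, SAMtools 1.7-13, MACS2 and the build hg19. How both samples and the input were combined, the calling threshold, and the treatment of duplicate and multiply matching reads were not given in the sources used here. The score that the authors deposited with each peak is a whole number of unstated scale, so it was used mainly as a rank within a list. Read depth is unknown, and no interval for it can be given. Input samples and reads were not used here.

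Coordinates are counted from 1. The centromere gaps and chromosome lengths of hg19 were entered from general knowledge, and 0 peaks of any list fell inside a gap or past a chromosome end. Analyses used Python 3.11.15, numpy 2.4.6, scipy 1.17.1 and pandas, and figures matplotlib 3.10.9. Kept peaks shared 25% of both lengths, regions were joined at 1 bp, and clusters at 100 kb. Shares carry 95% Clopper-Pearson intervals. The exact permutation test enumerated 256 arrangements, p was adjusted after Benjamini and Hochberg with a threshold of 0.05, and the test was tested on simulated data. Values without a test have 1 list per time. Alternatives are given in the closing section.

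The regions named were the 3 highest-scoring peaks of each list outside the mitochondrial genome, the widest peak of each list, up to 5 regions each of 3 sorts (called at all times; missing at 7 h alone; without another antibody), the 3 highest peaks called only at 3 h and only at 9 h, and the 8 clusters with the most peaks. The account of gl000220, of chromosome 4 and of chr9_gl000199_random, and of the pairing of times, was added after their values were seen. The members and rules were chosen with earlier results of these data known.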

Additional observations from a re-analysis of the deposited data

How the results depend on the processing

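No paired analysis was possible because a list pools the samples of a time and has no replicate number. Leaving out a replicate could not be done either. In all, 98 alternative values were computed for 15 results. Of 66 with a test, 44 kept direction and side of the threshold, 10 lost the call and 12 changed sign. Of 32 without a test, 17 stayed within the counting interval or within 1.5 times, and 15 did not. The cause was not tested for any of these.

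Leaving out a time gave a difference in the number of peaks of 62.7 to 92.8, in the share without another antibody of 14.4 to 23.8 points, in median width of -15.7 to 5.94 bp, in the mitochondrial share of -9.23 to 0.81 points, in the scaffold share of -5.28 to 1.52 points and in the pericentromeric share of -0.54 to 11 points. Adjusted p over all alternatives ran from 0.0054 to 0.109 for the number of peaks and from 0.0137 to 0.208 for the share without another antibody (exact permutation test). With lists exchanged over all times the number of peaks differed by 75.3 and its adjusted p was at the threshold (exact permutation test, adjusted p = 0.05). With the shTUBG U2OS lists the share without another antibody differed by 14.0 points, the median width by 6.35 bp and the share found at another time by 0.089 points. With peaks scoring at least the list median, median width differed by 9.79 bp and the scaffold share by 2.07 points. With peaks within 1000 bp merged, the scaffold share differed by 4.30 and the pericentromeric share by -4.96 points. None of the results that changed sign passed the threshold.

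Of the 3 h peaks kept at 7 h, the share was 28.7% with 50% overlap and 31.0% with merged peaks. For 7 h to 9 h it was 78.0% with 1 bp, 36.6% with 50% overlap and 39.1% merged. For 3 h to 9 h it was 90.1%, 72.8% and 73.5%. For asynchronous cells to 3 h it was 79.1%, 32.6% and 43.5%, and 46.3% with peaks scoring at least the list median. Regions called at all 4 times numbered 31 when peaks within 1000 bp were joined and 23 with peaks scoring at least the list median, which also left 65 regions without another antibody. Depth and duplicates could not be varied, so a difference in depth between lists limits every count here.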
